A study of Arabidopsis thaliana with 24 samples.

Results

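Nitrogen enters an *Arabidopsis thaliana* seedling mainly as nitrate and ammonium, and 10 of the 33977 genes counted in these data were chosen by locus because they carry out or control its entry and first reduction. The nitrate transport genes were *NRT1.1* (AT1G12110), *NRT2.1* (AT1G08090) and *NRT3.1* (AT5G50200). The reduction genes were *NIA1* (AT1G77760), *NIA2* (AT1G37130) and *NIR1* (AT2G15620). The ammonium transporter genes were *AMT1;1* (AT4G13510), *AMT1;2* (AT1G64780), *AMT1;3* (AT3G24300) and *AMT1;5* (AT3G24290). The rule names loci and uses no measured value, although it was written with earlier results of these data known.

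The libraries came from shoots or roots of *hy5-215* mutant and Col-0 wild-type seedlings, both in the Col-0 ecotype. They were grown on MS medium lacking sucrose at 22 °C in white light, for 5 days according to the labels and 6 days according to the methods, and then kept for 4 h at 22 °C or at 28 °C. The 2 organs, 2 genotypes and 2 temperatures gave 8 groups with 3 replicates each, which the methods call biological, 24 libraries in all, and the design asks how organ, HY5 and a warmer temperature bear on transcript levels. Some label fields conflict. The genotype field reads the same for every sample of an organ, so genotype was taken from the titles and sample descriptions. The shoot is labelled hypocotyl, while the methods describe hypocotyl with cotyledons, and the series text gives 24 h where the sample labels give 4 h. *hy5-215* is 1 mutant allele, and each library is a whole organ of pooled cell types, so that fewer cells of a type and less RNA per cell cannot be told apart.

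Nitrate is taken up by low-affinity and high-affinity carriers. NRT1.1 works over both ranges and also senses nitrate, NRT2.1 is the main inducible high-affinity carrier of the root, and NRT3.1 (also called NAR2.1) is the partner protein that NRT2.1 needs at the plasma membrane. Nitrate reductase, encoded by *NIA1* and *NIA2*, turns nitrate into nitrite in the cytosol, and nitrite reductase, encoded by *NIR1*, turns nitrite into ammonium in plastids. The AMT1 proteins are high-affinity ammonium transporters of the plasma membrane. HY5 is a bZIP transcription factor that promotes light responses and binds DNA motifs with an ACGT core.

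The levels are read counts from 3′Tag-Seq, in which only the 3′ end of a transcript is read. They are given per 1000000 counts of a library (CPM), scaled between libraries by the trimmed mean of M values (TMM). Levels are compared between samples and never between genes. Sums over the marker lists are an exception to the scaling, given per 1000000 counts of a library without TMM. Library totals ran from 1212281 counts, in replicate 3 of the Col-0 root at 22 °C, to 3781032. A list of 8 photosynthesis genes that mark the shoot summed to between 39131 and 63047 CPM in shoot libraries and between 553 and 1369 CPM in root libraries, and none of the 8 was at 0 in any library. A list of 17 root genes summed to between 5992 and 8042 CPM in root libraries and between 1001 and 1811 CPM in shoot libraries, and none was at 0 in a root library. *HY5* itself fell in *hy5-215* roots, from 44.5, 48.9 and 63.2 to 12.9, 17.4 and 10.4 CPM at 22 °C and from 50.1, 51.9 and 44.0 to 10.2, 9.99 and 7.97 CPM at 28 °C. In the shoot its difference did not pass the test at 22 °C (log2 difference -0.53, edgeR adjusted p = 0.0513) or at 28 °C (-0.57, adjusted p = 0.213), so the transcript separated the genotypes past the threshold in the root alone. *hy5-215* is a point mutation and not a deletion, so a tag at the 3′ end does not read the lesion itself.

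Because ACGT cores are what HY5 is known to bind, the 250 bases upstream of the annotated start of each gene were read from the RefSeq genome (build TAIR10.1), and ACGT was searched for. It reads the same on both strands, and it lies inside the longer motifs CACGTG and GACGTG. Sequences are shown for the nitrate reductase genes and for the ammonium transporters that differed between genotypes in the root, since these pairs of related genes differed in whether they hold the motif. They are written 5′ to 3′ on the strand of the gene, with every ACGT in capitals. The windows are chr1:29239485-29239734 on the minus strand for *NIA1*, chr1:14158202-14158451 on the plus strand for *NIA2*, chr1:24062805-24063054 on the minus strand for *AMT1;2* and chr3:8807461-8807710 on the minus strand for *AMT1;3*.
NIA1: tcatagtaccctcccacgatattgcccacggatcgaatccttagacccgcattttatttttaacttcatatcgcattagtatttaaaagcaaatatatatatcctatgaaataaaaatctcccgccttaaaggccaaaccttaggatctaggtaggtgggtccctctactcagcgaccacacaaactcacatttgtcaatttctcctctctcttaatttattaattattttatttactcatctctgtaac
NIA2: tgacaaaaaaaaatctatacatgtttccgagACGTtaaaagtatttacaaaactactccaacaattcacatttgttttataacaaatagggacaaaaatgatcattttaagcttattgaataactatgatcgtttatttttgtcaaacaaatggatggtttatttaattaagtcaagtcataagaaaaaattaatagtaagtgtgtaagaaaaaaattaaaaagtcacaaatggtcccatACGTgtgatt
AMT1;2: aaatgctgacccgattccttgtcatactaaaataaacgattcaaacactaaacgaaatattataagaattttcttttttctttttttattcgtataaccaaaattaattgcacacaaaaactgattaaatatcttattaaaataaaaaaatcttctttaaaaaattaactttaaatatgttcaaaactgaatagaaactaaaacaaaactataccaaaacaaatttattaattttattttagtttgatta
AMT1;3: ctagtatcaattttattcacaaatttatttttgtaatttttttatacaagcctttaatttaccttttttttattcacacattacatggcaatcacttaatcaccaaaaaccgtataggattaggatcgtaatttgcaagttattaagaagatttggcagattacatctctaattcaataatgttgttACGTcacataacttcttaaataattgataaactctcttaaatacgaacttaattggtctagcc
*NIA2* held 2 ACGT cores and *AMT1;3* held 1. The windows of the other 8 members held none, *NIA1* and *AMT1;2* among them. Of the 27443 protein-coding genes in the annotation, 44.1% had an ACGT in the same window, 6.49% had CACGTG and 5.89% had GACGTG, and no member had either of these longer motifs. The study also names ACGTG and GACGTA as HY5 motifs, and these were not counted over all genes. The *NIA2* window printed above holds ACGTG, and the *AMT1;3* window holds GACGTA on the opposite strand. A match is a string of letters, and binding was not measured here.

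Of the 10 members, 8 passed the filter on low counts and were tested in every comparison. *AMT1;5* had 0 counts in all 24 libraries, which allows at most 0.321 to 0.633 CPM depending on the group. This limit is set by 3 counts over a group's summed total, without TMM, so it is not on the scale of the other levels. It covers counting error only. The annotated model of *AMT1;5* has no 3′ untranslated region, and its last 300 bases match the neighbouring gene AT3G24300 with 86.0% identity. *NRT2.1* had 3 counts in total, which were 2, 1 and 0 counts in the replicates of the Col-0 root at 28 °C. It was at 0 in 22 libraries, so neither gene can be compared between groups at this depth. *AMT1;1* overlaps AT4G13505 on the opposite strand, a locus with 15 counts over the 24 libraries and at most 3 in any of them. The lowest count of a tested member in any library was 11, for AT3G24300 in a shoot.

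**Figure D1:**
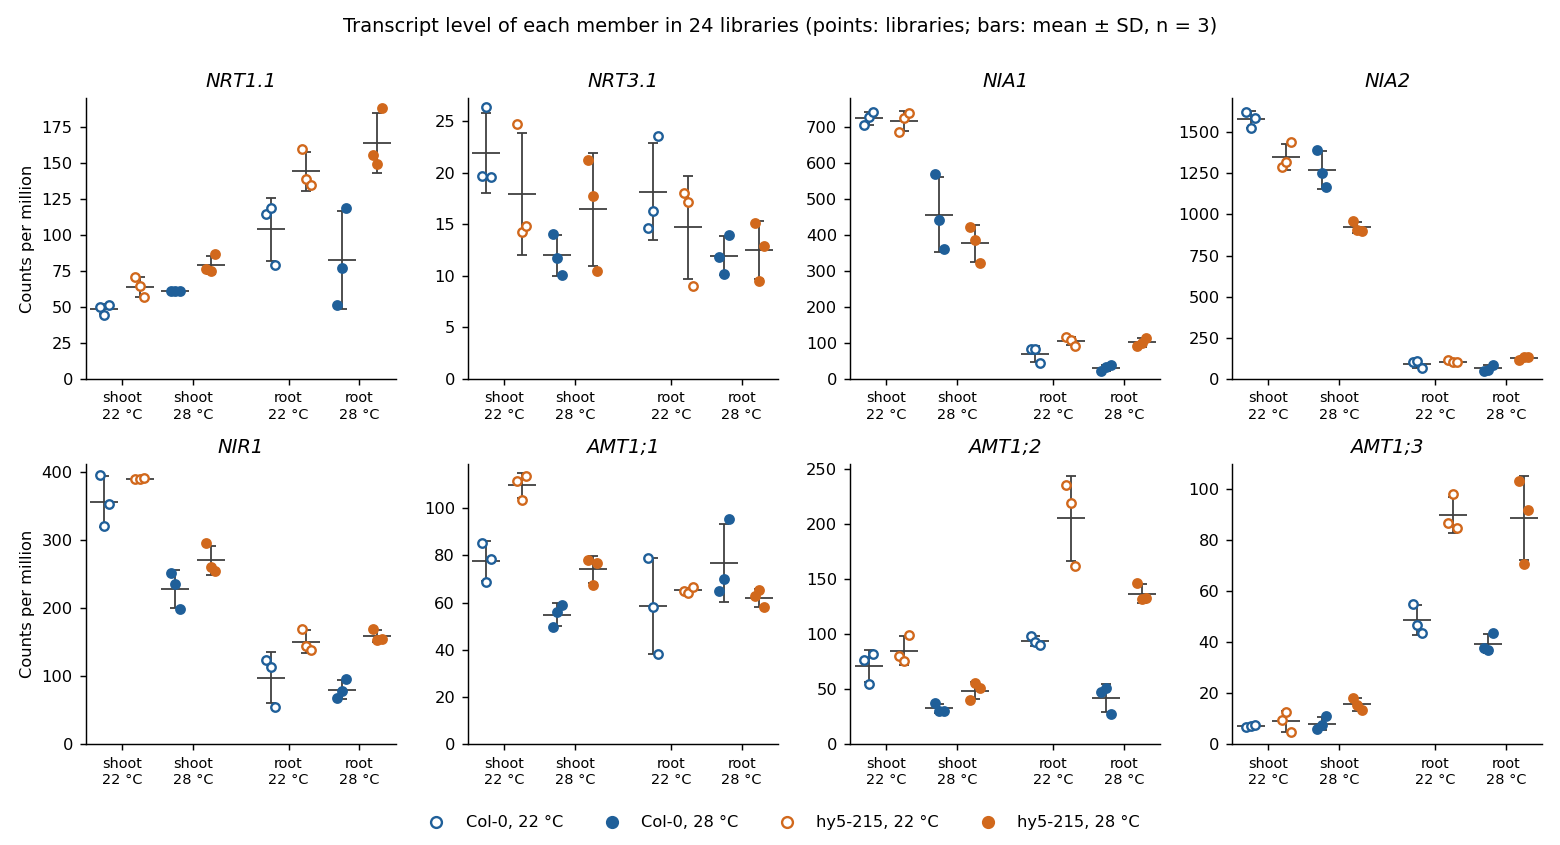
Level of the 8 tested members, in TMM-scaled CPM from 0 on each vertical axis, with organ and temperature along the horizontal axis. Blue is Col-0 and orange is *hy5-215*, open points are 22 °C and filled points 28 °C, each point is a library, and bars give the mean ± SD of 3 replicates. *NIA1* stays between 90.4 and 115 CPM in *hy5-215* roots at 28 °C, above all Col-0 roots at that temperature (21.9 to 38.4 CPM).

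At 22 °C the reduction genes were much lower in the root than in the shoot and *AMT1;3* was much higher there, in both genotypes. A call here means that the quasi-likelihood F-test of edgeR gave a Benjamini-Hochberg p, adjusted over every gene in the fit, no higher than 0.05. In Col-0 at 22 °C, 6 of the 8 tested members differed between root and shoot, against 62.8% of all 16324 genes tested. *NIA2* was 16.2-fold lower in the root (log2 difference -4.02 ± 0.13 SE, adjusted p = 3.67e-19), *NIA1* 9.79-fold lower (-3.29 ± 0.15) and *NIR1* 3.43-fold lower (-1.78 ± 0.17). AT3G24300 was 6.87-fold higher (2.78 ± 0.22) and *NRT1.1* 2.24-fold higher (1.16 ± 0.15). The remaining call, a 1.37-fold higher level of AT1G64780 in the root (adjusted p = 0.00720), was lost without replicate 2 of the Col-0 shoot (adjusted p = 0.133). *AMT1;1* and *NRT3.1* did not pass, and *AMT1;1* passed without replicate 1 of the Col-0 root (adjusted p = 0.00217). In *hy5-215* at 22 °C, 7 of 8 members differed between the organs, against 65.3% of 17016 genes. There AT1G64780 was 2.42-fold higher in the root and *AMT1;1* 1.67-fold lower, while *NRT3.1* stood at 24.7, 14.2 and 14.8 CPM in the shoot and 18.0, 17.1 and 9.0 CPM in the root. With library totals alone in place of TMM the median of all genes shifted to 0.48 (Col-0) and 0.69 (*hy5-215*) on the log2 scale, calls split into 7847 higher and 3893 lower in Col-0 instead of 4988 and 5258, and in *hy5-215* into 9781 and 3746 instead of 5375 and 5730. All called members kept their sign under that scaling, although the call for *AMT1;1* in *hy5-215* was lost.

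At 28 °C, 6 of 8 tested members were higher in *hy5-215* roots and none was lower, where 12.3% of 16514 genes differed and 7.07% were higher. At 22 °C, 5 of 8 were higher in *hy5-215* roots, where 11.7% of 15628 genes differed and 6.07% were higher. In the shoot 2 of 8 differed at 22 °C, against 9.35% of 15548 genes, and 3 of 8 at 28 °C, against 5.86% of 15702 genes. The median log2 difference of the tested members was 0.99 in the root at 28 °C and 0.50 in the root at 22 °C, and the median over all genes was -0.003 and -0.01. The count in the root at 28 °C stayed at 6 whichever library was left out. The count at 22 °C was less firm. It was 2 without replicate 2 or 3 of the Col-0 root or replicate 1 or 2 of the *hy5-215* root, 3 without replicate 3 of the *hy5-215* root, and 2 in DESeq2. In the shoot at 22 °C it was 0 without replicate 2 of Col-0, and 1 without replicate 3 of Col-0 or replicate 1 or 2 of *hy5-215*. In the shoot at 28 °C it was 1 without replicate 2 of either genotype. With a term for replicate number in the fit it was 6 there, where 1755 of 15702 genes were called.

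Per library total, without TMM, the sum of the shoot genes in roots was also lower in *hy5-215* at 22 °C without overlap. At 28 °C the genotypes overlapped. Col-0 roots had 1124 to 1369 CPM at 22 °C and 684 to 909 CPM at 28 °C, whereas *hy5-215* roots had 559 to 679 and 553 to 1026 CPM. The sum of the root genes was 7098 to 8042 CPM in Col-0 roots and 5992 to 6677 CPM in *hy5-215* roots at 22 °C, and 6149 to 6251 against 7202 to 7612 CPM at 28 °C. The part of either in the genotype differences was not tested.

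**Figure D2:**
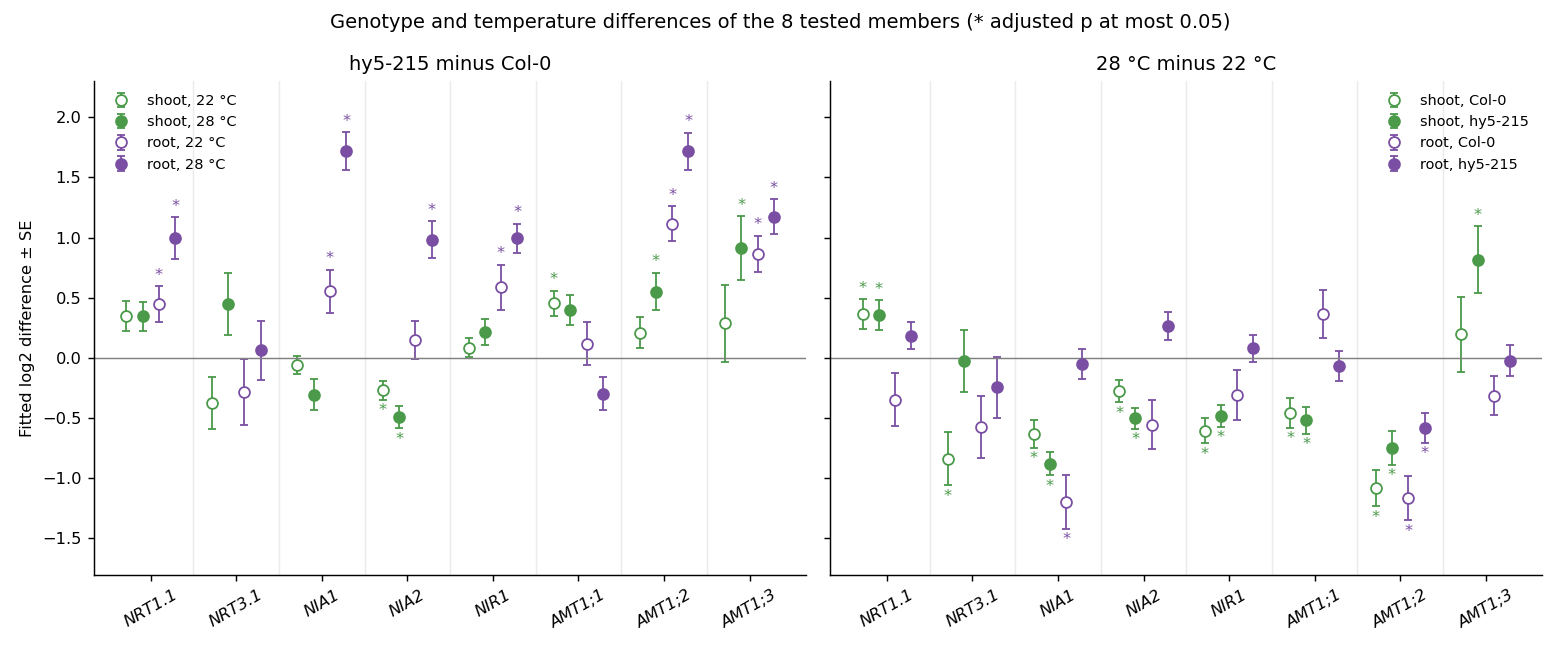
Fitted log2 difference ± SE for the 8 tested members, *hy5-215* minus Col-0 in the left panel and 28 °C minus 22 °C in the right panel. Green is shoot and purple is root, open and filled points are the temperatures (left) or the genotypes (right), and asterisks mark an adjusted p of at most 0.05. The filled purple points at left sit highest for *NIA1* and *AMT1;2*, both at 1.72.

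Warmth lowered most of the tested members in the shoot. In the Col-0 shoot 7 of 8 members passed, 1 higher and 6 lower at 28 °C, where 25.0% of 15697 genes passed and 13.5% were lower. In the *hy5-215* shoot 7 of 8 passed, 2 higher and 5 lower, where 16.9% of 15680 genes passed and 9.32% were lower. Only *NIA1* and AT1G64780 were called in the Col-0 root, both lower, where 6.33% of 15743 genes passed and 3.70% were lower. AT1G64780 alone was called in the *hy5-215* root, where 6.05% of 16445 genes passed. The count for the Col-0 shoot fell to 4 without replicate 1 or 2 of Col-0 at 22 °C. For the Col-0 root it rose to 4 without replicate 3 at 22 °C or replicate 3 at 28 °C. The marker sums moved with temperature as well. In the shoot the sum of the 8 shoot genes was 49215 to 53447 CPM at 22 °C and 39131 to 47822 CPM at 28 °C in Col-0, and 58925 to 63047 and 51648 to 52252 CPM in *hy5-215*. The sum of the 17 root genes in the shoot was 1274 to 1341 and 1356 to 1545 CPM in Col-0, and 1001 to 1167 and 1787 to 1811 CPM in *hy5-215*. Per library total, without TMM, neither sum overlapped between temperatures in either genotype. In Col-0 both would overlap once divided by the TMM factors (0.808 to 0.864 at 22 °C, 0.837 to 0.866 at 28 °C). The part of these sums in the members' differences was not tested. The temperature and genotype comparisons share libraries, and whether the response to warmth differs between organs was not tested.

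In the direct tests of whether the temperature response depended on genotype, *NIA1* in the root was the 1 member called, against 1.41% of 16982 genes. No member was called in the shoot, where 1.03% of 16429 genes were. At an unadjusted p under 0.05, edgeR gave 1 shoot member, *NRT3.1*, and DESeq2 called 0 after adjustment. Whether the genotype difference depended on organ was tested at each temperature. At 22 °C, 2 of 8 members were called, against 6.48% of 17911 genes, and at 28 °C, 5 of 8, against 4.52% of 18045 genes. Leaving out 1 library gave 0 to 3 members for temperature in the root and 1 to 3 for organ at 22 °C, and the libraries concerned are named with each gene.

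The scaling between libraries moved the split of calls over all genes. With library totals alone, calls in the shoot were 481 higher and 1214 lower in *hy5-215* at 22 °C instead of 795 and 659, with the median of all genes at -0.10, and 388 and 576 at 28 °C instead of 482 and 438. For warmth in the *hy5-215* root they were 622 and 356 instead of 511 and 484. For genotype by temperature in the shoot they were 125 and 55 instead of 93 and 76. For genotype by organ they were 790 and 505 instead of 502 and 659 at 22 °C, with the median of all genes at 0.12, and 526 and 267 instead of 345 and 471 at 28 °C. Each called member kept its sign in all 14 comparisons. The shoot calls at 28 °C for AT1G64780 and AT3G24300 and the organ dependence of *AMT1;1* at 28 °C were lost under that scaling.

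*NRT1.1*, the dual-affinity carrier and nitrate sensor, was higher in the root than in the shoot at 22 °C, and higher in *hy5-215* roots. Root levels at 28 °C were 51.1, 77.3 and 119 CPM in Col-0 and 155, 149 and 188 CPM in *hy5-215*. The groups did not overlap, the spread among the Col-0 roots was wide, and the mutant was 1.99-fold higher (log2 difference 0.99 ± 0.17, edgeR adjusted p = 0.000194, adjusted p = 0.0577 in DESeq2). Root levels at 22 °C were 114, 118 and 78.7 CPM in Col-0 and 159, 138 and 134 CPM in *hy5-215*. That 1.36-fold difference (adjusted p = 0.0495) did not survive the omission of any 1 of the 6 libraries (adjusted p = 0.0611 to 0.195).

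In the shoot *NRT1.1* rose with warmth. Col-0 stood at 50.0, 44.3 and 51.2 CPM at 22 °C and at 60.9, 60.8 and 60.7 CPM at 28 °C, a 1.29-fold rise (0.36 ± 0.12, adjusted p = 0.0308). *hy5-215* went from 70.7, 64.4 and 56.7 CPM to 76.5, 74.6 and 86.3 CPM, a 1.28-fold rise (adjusted p = 0.0481). Temperatures did not overlap in either genotype, but the Col-0 call was lost in 5 of 6 omissions (all but replicate 1 at 28 °C, adjusted p = 0.0561 to 0.130) and the *hy5-215* call in 6 of 6 (0.0503 to 0.164). Neither genotype comparison in the shoot passed (adjusted p = 0.0756 at 22 °C and 0.101 at 28 °C), and the former passed without replicate 3 of *hy5-215* (adjusted p = 0.0257). In the Col-0 root the temperatures overlapped (log2 difference -0.35, adjusted p = 0.408), and without replicate 3 at 28 °C the value was -0.71 (adjusted p = 0.0270). Without that library the tests of genotype by temperature in the root (adjusted p = 0.0283, from 0.425) and of genotype by organ at 28 °C (0.00139, from 0.164) also passed.

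*NRT3.1*, the partner of the high-affinity carrier, was sparse and changed in a single comparison. In the Col-0 shoot it fell 1.79-fold with warmth, from 19.7, 26.4 and 19.6 CPM to 14.1, 11.7 and 10.1 CPM (-0.84 ± 0.22, adjusted p = 0.00579), without overlap. The call was lost without replicate 2 at 22 °C (adjusted p = 0.0565). In the *hy5-215* shoot the levels were 24.7, 14.2 and 14.8 CPM at 22 °C and 21.3, 17.7 and 10.5 CPM at 28 °C, which overlapped (-0.03 ± 0.25). The 2 genotypes' responses were not shown to differ (difference 0.80 ± 0.35, adjusted p = 0.366). Over the 24 libraries it ran from 9.0 to 26.4 CPM, and when the 8 groups are ordered by mean every group overlapped the next.

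*NIA1*, which provides the smaller share of nitrate reductase activity in leaves, was the member whose temperature response depended on genotype. At 22 °C its root levels were 82.6, 83.4 and 43.7 CPM in Col-0 and 116, 107 and 92.1 CPM in *hy5-215*. At 28 °C they were 21.9, 32.5 and 38.4 CPM in Col-0 and 90.4, 101 and 115 CPM in *hy5-215*. No Col-0 root reached the lowest *hy5-215* root at its temperature. The mutant was 1.47-fold higher at 22 °C (0.55 ± 0.18, adjusted p = 0.0409) and 3.29-fold higher at 28 °C (1.72 ± 0.16, adjusted p = 9.23e-09). The 22 °C call was lost without replicate 2 or 3 of Col-0 or replicate 1 or 2 of *hy5-215* (adjusted p = 0.0582 to 0.169).

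Warmth lowered *NIA1* 2.29-fold in Col-0 roots (-1.20 ± 0.22, adjusted p = 0.00227), without overlap, and in *hy5-215* roots the log2 difference was -0.05 ± 0.12 (adjusted p = 0.882). In Col-0 roots the sum of the shoot genes, per library total without TMM, was also lower at 28 °C without overlap. It was 1124 to 1369 CPM at 22 °C and 684 to 909 CPM at 28 °C. In *hy5-215* roots it overlapped (559 to 679 and 553 to 1026 CPM), and its part in the *NIA1* responses was not tested. The difference between these responses was 1.17 ± 0.26 on the log2 scale (adjusted p = 0.00989). It stayed positive in every omission and lost the call without replicate 1 (adjusted p = 0.0582) or replicate 2 (0.0955) of the Col-0 root at 22 °C. In the shoot warmth lowered *NIA1* in both genotypes. Col-0 went from 705, 727 and 740.3 CPM to 568, 440.5 and 361 CPM (1.55-fold lower, adjusted p = 0.000184). *hy5-215* went from 686, 725 and 739 CPM to 422, 385 and 322 CPM (1.84-fold lower, adjusted p = 4.42e-07). Genotypes overlapped at both temperatures in the shoot, with adjusted p = 0.724 at 22 °C and 0.209 at 28 °C, and the latter became 0.0310 without replicate 3 of Col-0. The genotype difference was larger in the root than in the shoot by 1.98 ± 0.22 at 28 °C (adjusted p = 2.30e-07). At 22 °C it was larger by 0.60 ± 0.19 (adjusted p = 0.0454), a call lost in 9 of 12 omissions (adjusted p = 0.0599 to 0.172), namely of each shoot library, of replicate 3 of the Col-0 root and of replicates 1 and 2 of the *hy5-215* root.

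*NIA2*, the gene that provides most nitrate reductase activity in leaves, moved in opposite directions in the 2 organs of *hy5-215* at 28 °C. In the shoot at 28 °C it stood at 1390.5, 1254 and 1164 CPM in Col-0 and at 959.7, 908 and 899 CPM in *hy5-215*, 1.4-fold lower in the mutant (-0.49 ± 0.09, adjusted p = 0.00264). The root at 28 °C held 49.5, 54.7 and 87.0 CPM in Col-0 and 112, 130.4 and 135 CPM in *hy5-215*, 1.98-fold higher in the mutant (0.98 ± 0.15, adjusted p = 3.98e-05). Neither pair of groups overlapped, neither call was lost in any omission, and the organs differed by 1.43 ± 0.19 (adjusted p = 5.88e-06).

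At 22 °C the shoot held 1624, 1525 and 1589 CPM of *NIA2* in Col-0 and 1291, 1321 and 1440.1 CPM in *hy5-215*, again without overlap and 1.21-fold lower in the mutant (-0.27 ± 0.08, adjusted p = 0.0168). That call was lost without replicate 2 or 3 of Col-0 or replicate 1 or 2 of *hy5-215* (adjusted p = 0.0515 to 0.121). The root at 22 °C held 105, 108 and 65.2 CPM in Col-0 and 112, 100 and 102 CPM in *hy5-215*, which overlapped (adjusted p = 0.639). Warmth lowered *NIA2* in the shoot of Col-0 (1.21-fold, adjusted p = 0.0265) and of *hy5-215* (1.42-fold, adjusted p = 0.000139). The Col-0 call was lost in 5 of 6 omissions, all but replicate 1 at 28 °C (adjusted p = 0.0603 to 0.148). Roots gave a temperature difference of 0.27 ± 0.12 (*hy5-215*) and -0.56 ± 0.20 (Col-0), and neither passed. Without replicate 3 at 22 °C or replicate 3 at 28 °C the Col-0 root did pass (adjusted p = 0.00961 and 0.00719), as did the difference between the genotypes' responses (0.00866 and 0.00274, from 0.0718).

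*NIR1*, the nitrite reductase gene, was higher in *hy5-215* roots and fell with warmth in the shoot of both genotypes. Root levels at 28 °C were 67.8, 78.2 and 95.7 CPM in Col-0 and 169.9, 154 and 154 CPM in *hy5-215*. The mutant was 1.99-fold higher without overlap (0.99 ± 0.12, adjusted p = 9.85e-07), in every omission. Those at 22 °C were 125, 115 and 55.1 CPM in Col-0 and 170.4, 145 and 138 CPM in *hy5-215*. The 1.5-fold difference there (0.59 ± 0.19, adjusted p = 0.0393) was lost in 5 of 6 omissions, all but replicate 1 of Col-0 (adjusted p = 0.0517 to 0.152).

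In the shoot *NIR1* went from 396, 321 and 353 CPM to 252, 235 and 199 CPM in Col-0 and from 390.4, 390.1 and 391 CPM to 295, 261 and 255 CPM in *hy5-215*. Both were falls with warmth, 1.52-fold (adjusted p = 8.94e-05) and 1.4-fold (adjusted p = 0.000444), without overlap. The genotype difference in the shoot was 0.09 ± 0.08 at 22 °C and 0.22 ± 0.11 at 28 °C and did not pass at either. The genotype difference was larger in the root than in the shoot at 28 °C, by 0.74 ± 0.17 (adjusted p = 0.00788). In the Col-0 root the temperature difference did not pass (adjusted p = 0.449), although it did without replicate 3 at 22 °C (adjusted p = 0.0148). The organ dependence at 22 °C (adjusted p = 0.183) passed without replicate 1 of the Col-0 root (0.0352).

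*AMT1;2*, an ammonium transporter of the inner root tissues, was lower at 28 °C in both organs of both genotypes and higher in *hy5-215* roots. Roots at 22 °C held 98.6, 92.8 and 90.1 CPM in Col-0 and 235, 219.9 and 162 CPM in *hy5-215*, 2.17-fold higher in the mutant (1.12 ± 0.14, adjusted p = 3.86e-06). Roots at 28 °C held 47.5, 51.3 and 27.3 CPM in Col-0 and 147, 132 and 133 CPM in *hy5-215*, 3.29-fold higher (1.72 ± 0.15, adjusted p = 6.50e-09). Even the lowest *hy5-215* root, at 132 CPM, was above the highest Col-0 root of either temperature. Warmth lowered the transcript 2.24-fold in Col-0 roots (-1.16 ± 0.19, adjusted p = 0.000554) and 1.5-fold in *hy5-215* roots (-0.58 ± 0.12, adjusted p = 0.00216). These responses were not shown to differ (0.60 ± 0.23, adjusted p = 0.257).

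In the shoot the same transporter fell 2.12-fold with warmth in Col-0, from 77.1, 54.9 and 82.0 CPM to 37.7, 30.6 and 30.4 CPM (-1.08 ± 0.15, adjusted p = 5.58e-06). In *hy5-215* it fell 1.68-fold, from 80.8, 75.5 and 99.8 CPM to 40.4, 55.7 and 51.0 CPM (-0.75 ± 0.14, adjusted p = 0.000550). The 4 falls in the 2 organs and 2 genotypes were called in every omission, and no pair of temperatures overlapped. The shoot genotypes overlapped at 22 °C (adjusted p = 0.356). At 28 °C they did not overlap, and the 1.47-fold higher level in *hy5-215* (adjusted p = 0.0409) was lost without replicate 2 or 3 of either genotype (adjusted p = 0.0932 to 0.245) and in DESeq2. The genotype difference was larger in the root than in the shoot by 0.90 ± 0.20 at 22 °C (adjusted p = 0.00275) and by 1.12 ± 0.24 at 28 °C (adjusted p = 0.00395), in every omission.

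*AMT1;3*, a transporter of the outer root cells and root hairs, was higher in *hy5-215* roots at both temperatures. Root levels at 22 °C were 55.1, 46.9 and 43.7 CPM in Col-0 and 86.5, 97.8 and 84.8 CPM in *hy5-215*, 1.82-fold higher (0.87 ± 0.15, adjusted p = 0.000209). Root levels at 28 °C were 37.7, 36.8 and 43.7 CPM in Col-0 and 103, 70.7 and 91.8 CPM in *hy5-215*, 2.25-fold higher (1.17 ± 0.14, adjusted p = 1.35e-06). The genotypes did not overlap at either temperature, both calls held in every omission, and neither genotype changed with warmth past the threshold (adjusted p = 0.296 and 0.951). Shoot levels rested on few counts, from 4.8 to 18.3 CPM. There the 1.76-fold rise with warmth in *hy5-215* (adjusted p = 0.0461) was lost without replicate 1 or 3 at 22 °C or replicate 1 or 2 at 28 °C (adjusted p = 0.0951 to 0.209). The 1.88-fold higher level in *hy5-215* at 28 °C (adjusted p = 0.0481) was lost without replicate 1 or 2 of either genotype (0.132 to 0.180).

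*AMT1;1*, which is expressed in shoots as well as roots, passed in 3 of the 4 shoot comparisons of genotype or temperature and in none of the 4 root comparisons. In the shoot at 22 °C it stood at 85.5, 68.6 and 78.6 CPM in Col-0 and at 112, 104 and 114 CPM in *hy5-215*, 1.37-fold higher in the mutant (0.45 ± 0.11, adjusted p = 0.00273). In the shoot at 28 °C it stood at 49.5, 56.2 and 59.0 CPM in Col-0 and at 78.2, 67.6 and 76.8 CPM in *hy5-215*, a difference that did not pass (0.40 ± 0.13, adjusted p = 0.0720), although the groups did not overlap. Warmth lowered it 1.37-fold in Col-0 (adjusted p = 0.00695) and 1.43-fold in *hy5-215* (adjusted p = 0.00210). The Col-0 fall was lost without replicate 1 at 22 °C (adjusted p = 0.0606), and the genotype difference at 22 °C without replicate 2 of Col-0 (0.0507). In the root the levels were 78.9, 58.3 and 38.3 CPM (Col-0) and 65.1, 64.1 and 66.5 CPM (*hy5-215*) at 22 °C, and 64.8, 70.2 and 95.4 CPM (Col-0) and 62.8, 65.3 and 58.0 CPM (*hy5-215*) at 28 °C. At 28 °C the genotype difference was lower in the root than in the shoot by 0.73 on the log2 scale (-0.73 ± 0.19, adjusted p = 0.0231), a call lost in 5 of 12 omissions (adjusted p = 0.0559 to 0.119), which were replicate 2 of the Col-0 shoot, replicate 1 of the *hy5-215* shoot, replicate 3 of the Col-0 root and replicates 1 and 3 of the *hy5-215* root.

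Genes that act beside the members were read from 5 lists chosen by function. In the root the list of 36 nitrate signalling genes, with 32 tested, had 7 higher and 0 lower in *hy5-215* at 22 °C and 11 higher and 0 lower at 28 °C. Over all genes 6.07% and 7.07% were higher. The median log2 difference of the list was 0.31 and 0.32, beside -0.01 and -0.003 over all genes. *TGA1*, a bZIP factor of the nitrate response, was 1.14 ± 0.13 higher on the log2 scale at 22 °C and 0.98 ± 0.11 higher at 28 °C. *HRS1*, a repressor that joins nitrate and phosphate signals, was 0.92 ± 0.16 and 1.02 ± 0.18 higher. *LBD37* and *LBD39*, repressors of nitrate-responsive genes, passed at both temperatures as well.

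Of the 20 other nitrate transport genes in the files, 10 were tested in the root at 22 °C and 11 at 28 °C. At 22 °C 4 were higher and 1 lower in *hy5-215*, and at 28 °C 3 were higher and 0 lower. Over all genes 11.7% differed and 6.07% were higher at 22 °C, and 12.3% and 7.07% at 28 °C. The median log2 difference of the list was 0.45 at 22 °C and 0.17 at 28 °C. *NRT1.5*, which loads nitrate into the xylem, went from a mean of 169.5 ± 6.84 CPM (SD, n = 3) in Col-0 to 468 ± 90.9 CPM in *hy5-215* at 22 °C and from 237 ± 25.7 to 555 ± 34.3 CPM at 28 °C (log2 differences 1.45 ± 0.14 and 1.24 ± 0.09). *SLAH3*, an anion channel that passes nitrate, was higher by 2.2 ± 0.17 at 22 °C and by 1.1 ± 0.12 at 28 °C, and its genotype difference was smaller at 28 °C (interaction -1.1 ± 0.21, adjusted p = 0.00259). *NRT1.5* was higher in *hy5-215* shoots too, by 1.06 ± 0.16 at 22 °C and 0.89 ± 0.15 at 28 °C.

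The list of 13 genes that support reduction (the reductant supply, siroheme and molybdenum cofactor genes) had 1 higher at 22 °C and 3 higher at 28 °C in *hy5-215* roots, with none lower, beside 6.07% and 7.07% of all genes higher. The single gene at 22 °C is near that share. *RFNR2*, a root ferredoxin reductase, was higher by 0.65 ± 0.13 and *UPM1*, which makes the siroheme of nitrite reductase, by 0.78 ± 0.15 at 28 °C. In ammonium assimilation, 5 of 13 tested genes were higher and 1 lower at 22 °C, and 2 were higher and 0 lower at 28 °C, the latter near the share of all genes that differed (12.3%). The cytosolic glutamine synthetase gene *GSR2* (AT1G66200) was higher by 0.73 ± 0.18 at 22 °C and by 1.37 ± 0.12 at 28 °C. *GLT1*, the NADH-dependent glutamate synthase, was higher by 0.68 ± 0.08 at 28 °C. Of the 2 other ammonium transporter genes, the 1 tested, *AMT2* (AT2G38290), was higher by 0.74 ± 0.19 at 28 °C.

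**Figure D3:**
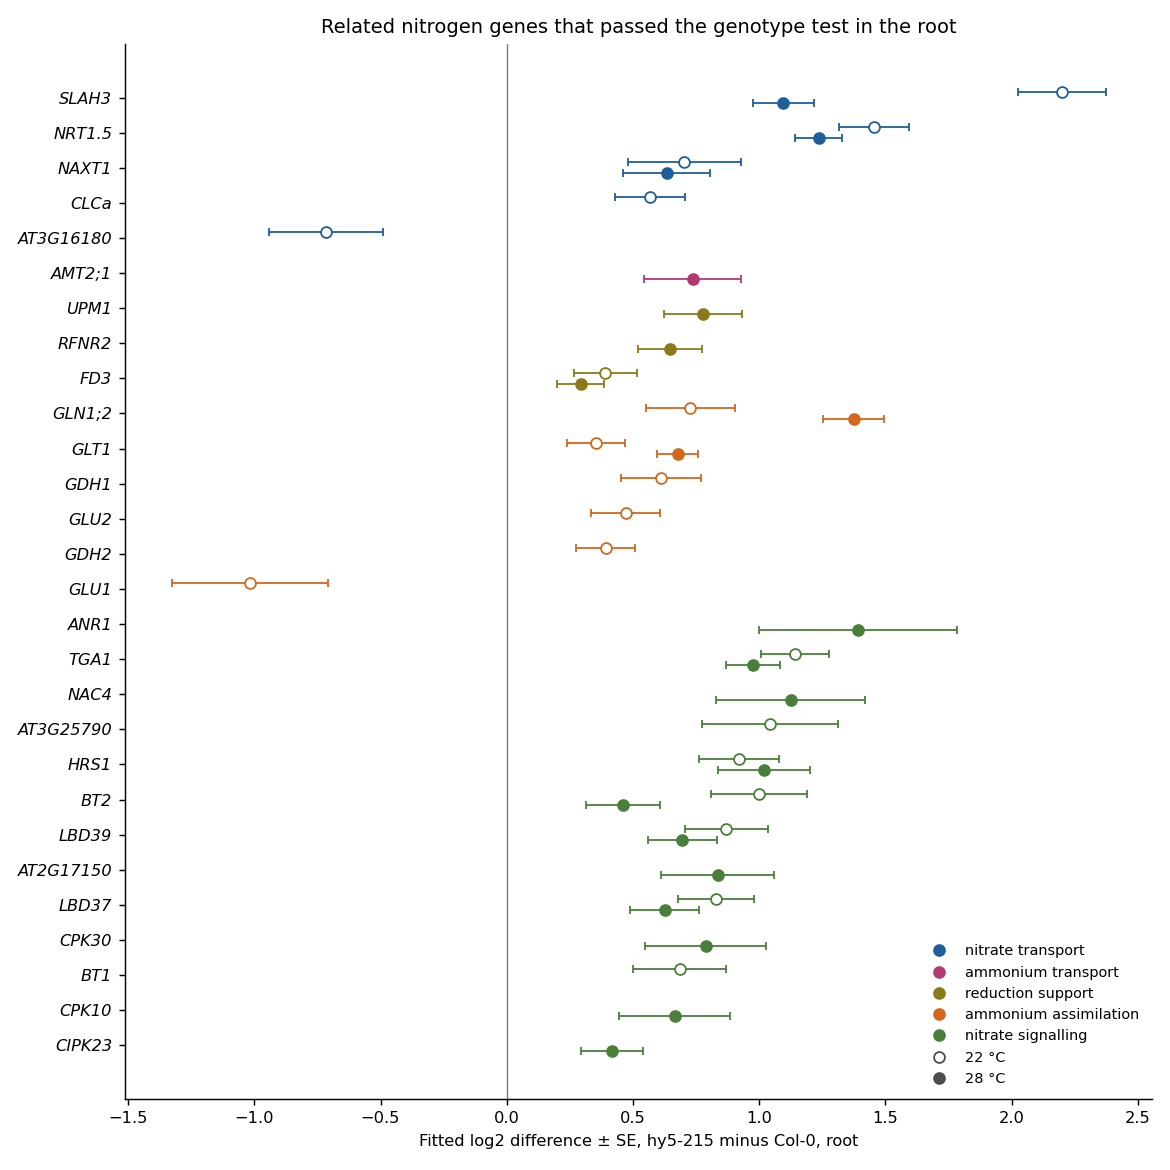
Fitted log2 difference ± SE, *hy5-215* minus Col-0 in the root, for the 28 genes of the 5 lists that passed at either temperature. Colours are the lists, open points 22 °C and filled points 28 °C, and a point is drawn only where the gene passed at that temperature. *SLAH3* sits farthest to the right, at 2.2 at 22 °C, and 2 genes sit to the left of 0.

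In the shoot the signalling list had 8 of 30 tested genes higher and 0 lower in *hy5-215* at 22 °C, where 9.35% of all genes differed. *BT1* was 0.49 ± 0.08 higher and *BT2*, its paralogue, 0.36 ± 0.08 higher. At 28 °C edgeR called 0 of the 31 tested after adjustment, with 4 at an unadjusted p under 0.05, DESeq2 called 0, and the median log2 difference of the list was 0.03. With warmth, 6 of 30 signalling genes were lower and 1 higher in the Col-0 shoot, close to the share over all genes (25.0%). In the *hy5-215* shoot 9 of 31 were lower and 0 higher, where 9.32% of all genes were lower. *CPK32*, a calcium-dependent kinase of the nitrate response, fell in both (-1.23 ± 0.14 and -1.18 ± 0.13). *BT1* fell by 0.46 in Col-0 shoots and by 1.11 in *hy5-215* shoots, and this difference passed (-0.66 ± 0.14, adjusted p = 0.0122), as it did in the root (-1.23 ± 0.28, adjusted p = 0.0133). *ASN1*, an asparagine synthetase, rose by 0.88 ± 0.12 with warmth in Col-0 shoots and was lower in *hy5-215* shoots, by -0.47 ± 0.08 at 22 °C and -1.1 ± 0.14 at 28 °C. *RFNR2* fell with warmth in the Col-0 shoot (-0.75 ± 0.18), the Col-0 root (-0.83 ± 0.18) and the *hy5-215* root (-0.51 ± 0.13).

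The genes whose pattern over the 8 group means was most like that of a member were found among 14156 genes, by the root mean square difference of centred log2 CPM. The nearest to *NIR1* were *RECA1* (0.18) and *LBD37* (0.19), and the latter is also on the signalling list. The nearest to *NIA2* was *TDT*, a vacuolar malate transporter gene (0.18), and *PEL3* came next (0.18). For *NIA1* the nearest, *MO1*, was 0.31 away, and for AT1G64780 the nearest, *PHO2*, a regulator of phosphate transport, was 0.33 away. *NRT1.1*, *NRT3.1*, *AMT1;1* and *AMT1;3* each had a gene within 0.12. These distances describe 8 means and carry no test.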

How the data were processed

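The authors prepared 3′Tag-Seq libraries from total RNA, checked reads with FastQC, aligned them to the Arabidopsis genome with HISAT2 and counted reads per gene with HTSeq on TAIR10 (tools and build as in their methods and the submitters' processing notes, versions and strand setting not given in the sources used here). The deposited values are whole-number counts per gene without normalization, in 4 tables of 24 libraries. Of the 33977 gene identifiers, 32548 matched the RefSeq annotation (TAIR10.1). Columns were mapped to groups by sample title and description.

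Every comparison was fitted on the whole count table with edgeR 4.0.16 in R 4.3.3 (filterByExpr at its defaults, min.count 10 and min.total.count 15, TMM, quasi-likelihood F-test, no replicate block), over the 6 libraries of a pair or the 12 of an interaction. P-values were adjusted by Benjamini-Hochberg over all genes tested, and a gene was called at an adjusted p of at most 0.05. The 2-fold limit in the study's methods was an alternative. The SE is the log2 difference divided by the square root of F. It is an approximation. CPM of single genes were scaled by TMM over all 24 libraries. Marker sums and the limits for genes with 0 counts used count totals without TMM. Totals of 1212281 to 3781032 counts limit precision for members with few counts. The methods do not say whether reads carried molecular identifiers, and counting limits cover counting error only.

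The alternatives were DESeq2 1.42.0, no filter on low counts, library totals without TMM, a replicate block, a joint fit of 24 libraries, and leaving out each library. Replicate pairs differed beyond sampling noise (chi-square over degrees of freedom, 1.48 to 4.59), so no pair was counted as 1 library. The 3′ ends of members were compared with the genome by blastn 2.17.0+. The fitting code was tested on simulated data. The members and the gene lists were chosen with earlier results of these data known. Named from the lists were up to 3 genes per comparison with the smallest adjusted p among called genes whose mean count reached 20, and for each member the 2 genes nearest in pattern. Beyond that rule, *LBD37* at 28 °C and *LBD39* at 22 °C were named after their values were seen. *NRT3.2* (AT4G24720) was not analysed here.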

Additional observations from a re-analysis of the deposited data

Results flagged for a closer look

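The direct tests of a difference between 2 groups' effects passed for 5 members. In the root the temperature response of *NIA1* differed between genotypes by 1.17 on the log2 scale (edgeR adjusted p = 0.00989). At 28 °C the genotype difference was larger in the root than in the shoot by 1.98 for *NIA1*, 1.43 for *NIA2*, 1.12 for *AMT1;2* and 0.74 for *NIR1*, and it was lower in the root for *AMT1;1* (-0.73). At 22 °C it was larger in the root by 0.90 for *AMT1;2* and 0.60 for *NIA1*.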

How the results depend on the processing

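No called member changed its sign under any alternative run. With the 2-fold limit added, the members called were 1 for warmth in the Col-0 shoot, 0 in the *hy5-215* shoot and 0 in the *hy5-215* root. Over all genes that limit left 833 of 15697, 563 of 15680 and 285 of 16445. For *hy5-215* against Col-0 the members called were 0 in the shoot at 22 °C, 0 in the shoot at 28 °C, 1 in the root at 22 °C and 3 in the root at 28 °C. Over all genes it left 269 of 15548, 285 of 15702, 903 of 15628 and 800 of 16514. A limit of 1 on the log2 scale of the interaction itself leaves 1 member for genotype by temperature in the root, 0 for genotype by organ at 22 °C and 3 at 28 °C. Over all genes it leaves 186 of 16982, 800 of 17911 and 414 of 18045. DESeq2 called 1 in the shoot at 28 °C, 2 in the root at 22 °C and 1 for genotype by organ at 22 °C. Over all genes it called 575, 1361 and 998, in place of 920, 1831 and 1161. Library totals without TMM gave 1 in the shoot at 28 °C and 4 for genotype by organ at 22 °C, where 964 of 15702 and 1295 of 17911 genes were called. The joint fit of 24 libraries gave 0 in the shoot at 22 °C, 2 for genotype by temperature in the root and 1 for genotype by organ at 22 °C. It called 720, 314 and 1148 of 18666 genes there. Without the filter on low counts, genotype by temperature in the root gave 2, where 413 of 24000 genes were called. The cause was not tested.

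Leaving out 1 library gave 4 to 7 members for warmth in the Col-0 shoot, 5 to 6 in the *hy5-215* shoot, 2 to 4 in the Col-0 root and 1 in the *hy5-215* root. For genotype it gave 0 to 3 in the shoot at 22 °C, 1 to 3 in the shoot at 28 °C, 2 to 4 in the root at 22 °C and 6 in the root at 28 °C. For genotype by temperature it gave 0 in the shoot and 0 to 3 in the root, and for genotype by organ 1 to 3 at 22 °C and 4 to 5 at 28 °C. Root against shoot gave 5 to 7 in Col-0 and 7 in *hy5-215*.

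Replicate numbers were not taken to pair the samples, since no pair of groups had all 3 same-number correlations over 0.1. Between the genotypes in the shoot at 28 °C they were 0.14, -0.01 and 0.17, beside a mean of -0.05 between other numbers. This rule cannot show that those libraries were unpaired. With a replicate block the shoot at 28 °C gave 6 members in place of 3, the added calls being *NRT1.1* (adjusted p = 0.0410), *NIA1* (0.0110) and *AMT1;1* (0.0218), the same count as in the root at 28 °C under the block, and the other 13 counts stayed within 1.5 times. Over all genes the block called 1755 of 15702 in the shoot at 28 °C, in place of 920. Depth limits *AMT1;5* and *NRT2.1*, and the shoot values of *AMT1;3*.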
